A study of Homo sapiens with 9 samples.

Results

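Astrotactins and BRINP proteins are neural glycoproteins of the membrane, the secretory pathway and the endosomes, and the 5 human genes ASTN1, ASTN2, BRINP1, BRINP2 and BRINP3 were followed here in HEK293 cells with reduced SMCHD1. The genes were chosen by name, with their differences from the control cells already known, and BRINP1, BRINP2 and BRINP3 stand as DBC1, FAM5B and FAM5C in older tables. Every array probe whose RefSeq accession mapped to 1 of them was taken, which gave 7 of the 42405 probes on the array. ASTN1 and ASTN2 had 2 probes each and the BRINP genes had 1 probe each. Of the 7 probes, 6 were detected (flagged well above background by the scanner software) on all arrays of a group and were tested. The BRINP1 probe was not. The members are 5 of 19483 genes named through RefSeq, and 4 of the 16082 genes tested.

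HEK293 is a line derived from human embryonic kidney. Stable populations, kept in DMEM with 10% serum, carried a retroviral short hairpin RNA from the pQCXIP-GFP vector. The groups were KD3 (shRNA 3 against SmcHD1), KD4 (shRNA 4 against SmcHD1) and CTL (the control shRNA NC5), with 3 one-color Agilent arrays per group. All groups therefore share the vector, the infection and the selection, and the methods describe the triplicates as biological. Neither they nor the labels say whether separate infections or cultures were used, so that p-values measure the spread between these arrays. The hairpin inserts are shown because they are the only stated difference between the groups. Capitals mark the 9 bases of the loop, which were the same in all 3 inserts.
KD3: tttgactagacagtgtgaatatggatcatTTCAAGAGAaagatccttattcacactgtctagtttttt
KD4: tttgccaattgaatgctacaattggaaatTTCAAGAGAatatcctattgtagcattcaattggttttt
CTL: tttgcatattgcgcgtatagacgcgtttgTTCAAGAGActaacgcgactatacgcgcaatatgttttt

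ASTN1 is a neuronal membrane protein through which young neurons bind to glial fibres while they migrate. ASTN2 is its paralog, and it sets how much ASTN1 and other membrane proteins stay at the cell surface. The BRINP proteins were named as neural proteins inducible by bone morphogenetic protein (BMP) and retinoic acid, and they restrain cell cycle progression in neurons. Astrotactins and BRINPs share a MACPF domain, the membrane attack complex and perforin fold of complement proteins and perforin. All these genes are best known from brain, and HEK293 cells express part of the neuronal repertoire.

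SMCHD1, a chromatin protein that keeps genes silent, was lower in both knock-downs at all 3 of its probes. Its probe A_24_P400997 was at 11.20, 11.37 and 11.22 (normalized log2 signal) on the CTL arrays. It was at 10.40, 10.16 and 10.32 in KD3 and at 9.63, 9.80 and 9.77 in KD4. The 3 groups did not overlap. The signal left was 51.0% in KD3 (adjusted p = 0.000214) and 34.6% in KD4 (adjusted p = 1.81e-05, both by limma with Benjamini-Hochberg adjustment over 32276 probes). KD4 was below KD3 at this probe by a log2 difference of -0.56 (SE 0.09, adjusted p = 0.0195 by limma), at A_23_P38723 by -0.51 (adjusted p = 0.0141) and at A_24_P82630 by -0.54 (adjusted p = 0.0902). Without single knock-down arrays the adjusted p by limma reached 0.0645 at A_23_P38723 and 0.0697 at A_24_P400997. An array detected 75.1% to 79.8% of its probes. All 6 markers of HEK293 cells were well above background on all 9 arrays. So were 9 of 10 neuron markers, 4 of 5 glia markers and 5 of 6 fibroblast and blood markers. Detection alone thus does not tell HEK293 from other cells here. The arrays lay on 2 slides that each held all 3 groups.

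The family split in direction (the plot of member values on the 9 arrays). BRINP3 was higher than in CTL in both knock-downs, ASTN1 and BRINP2 were lower in both, ASTN2 gave opposite directions at its 2 probes, and BRINP1 stayed at background. A gene was called where a probe differed by at least 1.8-fold (0.85 on the log2 scale) with an adjusted p under 0.05 in the limma fit over all 9 arrays. By that rule 1 member was called higher in KD3, where 1.43% of the 16082 genes tested were, and 3 were called lower, where 3.5% of genes were. In KD4 1 member was called higher, against 1.68% of genes, and 3 were called lower, against 4.71%. These differences from CTL were in view when the genes were chosen, so that nothing is read from the counts, and the values against CTL are given as a description with no test. KD3 and KD4 were set against the same 3 CTL arrays. Over the 6 probes the median log2 difference was -1.24 in KD3 and -1.03 in KD4, beside medians of 0.01 and 0.04 over all 32276 probes. In RNA from whole cultures, fewer cells that express a gene and less RNA per cell cannot be told apart.

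**Figure D1:**
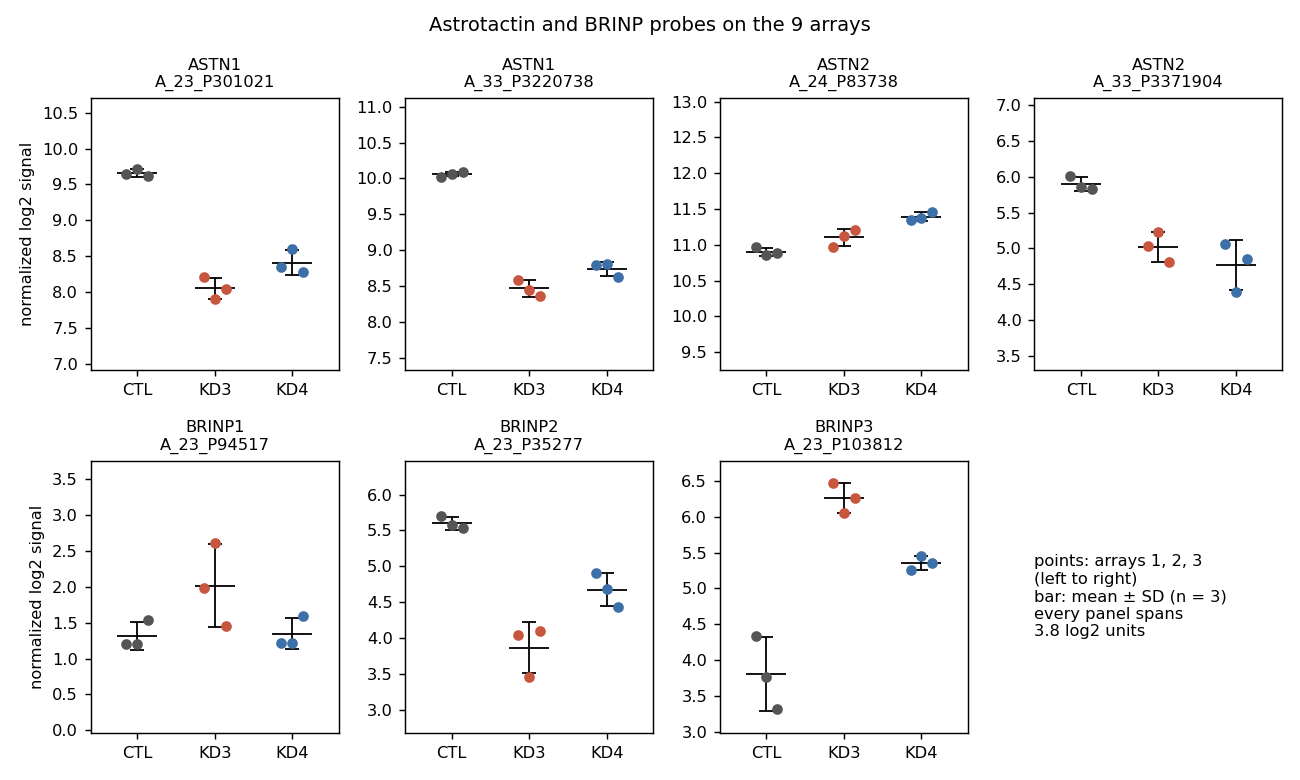
Normalized log2 signal (y axis, each panel spans 3.8 units) of the 7 astrotactin and BRINP probes on the CTL, KD3 and KD4 arrays, with points for arrays 1 to 3 and bars for the mean ± SD (n = 3). All 6 knock-down arrays sit below CTL for ASTN1, BRINP2 and ASTN2 probe A_33_P3371904, and above CTL for BRINP3 and ASTN2 probe A_24_P83738.

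BRINP3, the member of the BRINP group with the differences of largest size here, was at 4.34, 3.77 and 3.31 (normalized log2 signal) on the CTL arrays. It was at 6.48, 6.06 and 6.27 on the KD3 arrays. On the KD4 arrays it was at 5.25, 5.45 and 5.36. The groups did not overlap, with KD3 highest, KD4 between and CTL lowest. The group means were 3.81 ± 0.51 in CTL, 6.27 ± 0.21 in KD3 and 5.35 ± 0.10 in KD4 (log2, SD, n = 3). That is 5.51-fold above CTL in KD3 (log2 difference 2.46, SE 0.23) and 2.92-fold in KD4 (1.55, SE 0.23). With the normexp background correction the differences were 0.89 in KD3 and 0.47 in KD4, and the KD4 value was then under the fold used for a call. The closest arrays of KD3 and CTL were 1.72 apart on the log2 scale, and those of KD4 and CTL were 0.92 apart. The spread was widest in CTL, where the transcript was close to the limit of detection. The probe was detected on 2 CTL arrays and entered the fit through the knock-down arrays alone. Both folds therefore rest on a CTL level near background.

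The BRINP3 probe (A_23_P103812, designed on NM_199051) is printed on the array 10 times, so that its spots give the technical error within an array. On the CTL arrays 10 of 10, 6 of 9 and 4 of 10 usable spots were well above background, and the array with 4 such spots was not counted as detected. On the knock-down arrays every usable spot was above background. The SD between spots was 0.28 to 0.50 on the log2 scale on the CTL arrays and 0.05 to 0.19 on the knock-down arrays. The highest CTL spot was at 4.87 and the lowest KD4 spot at 5.02, so that no spot of CTL reached any spot of the knock-downs. Before normalization the median processed signal of these spots was 9.32 to 24.4 in CTL, 71.0 to 81.3 in KD3 and 32.8 to 45.8 in KD4 (intensity units). The difference from CTL was 2.52 in KD3 and 1.86 in KD4 on slide 1. On slide 2, which held a single CTL and a single KD4 array, it was 2.03 and 0.92.

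**Figure D2:**
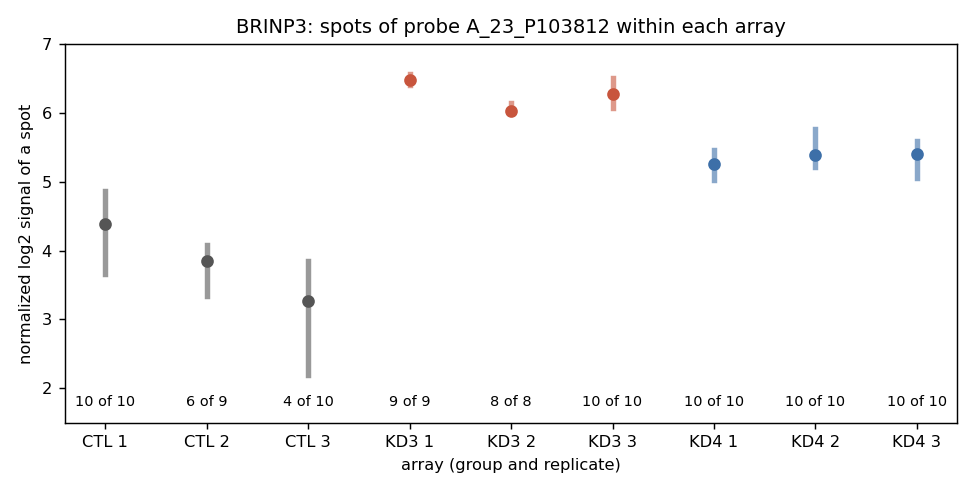
Normalized log2 signal of the BRINP3 spots (y axis) on each array (x axis), with the line from the lowest to the highest spot and the point at the median. The numbers at the bottom give the spots well above background among those used, and the CTL lines lie below those of KD3 and KD4.

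The annotated starts of BRINP3 are shown because they are the sequence from which the changing transcript would be read. RefSeq (build GRCh38.p14) gave a stretch of 250 bases before to 50 bases after the start for 4 of the 5 genes, in 7 entries, and CG dinucleotides are in capitals.
BRINP3, chr1:190477815-190478114, minus strand: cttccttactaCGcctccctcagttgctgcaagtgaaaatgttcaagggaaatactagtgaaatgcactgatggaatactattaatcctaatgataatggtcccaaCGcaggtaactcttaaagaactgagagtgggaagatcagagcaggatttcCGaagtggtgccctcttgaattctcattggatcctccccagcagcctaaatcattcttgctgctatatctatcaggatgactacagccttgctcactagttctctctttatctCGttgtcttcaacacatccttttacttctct
BRINP3, chr1:190475938-190476237, minus strand: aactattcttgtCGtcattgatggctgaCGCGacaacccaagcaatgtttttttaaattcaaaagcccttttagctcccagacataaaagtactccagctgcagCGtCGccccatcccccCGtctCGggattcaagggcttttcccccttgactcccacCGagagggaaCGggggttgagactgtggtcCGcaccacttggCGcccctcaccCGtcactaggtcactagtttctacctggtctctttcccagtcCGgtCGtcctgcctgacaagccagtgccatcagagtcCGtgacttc
Of these BRINP3 starts the upstream one held 4 CG dinucleotides, and 75.5% of 35116 human promoters of the same length hold at least as many. The other BRINP3 start held 15, a number that 48.9% of promoters reach. The letters AGGTCA, the core of the elements that retinoic acid receptors recognise, were searched on both strands. They occurred in 1 of the 7 member promoters, the BRINP3 start with 15 CG dinucleotides, and in 13.8% of all promoters. A match of letters is a description of the sequence and not a measured site.

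BRINP2 went the other way. It was at 5.70, 5.58 and 5.53 (normalized log2 signal) in CTL, at 4.04, 3.45 and 4.10 in KD3 and at 4.90, 4.69 and 4.43 in KD4. The order of the groups was the reverse of that of BRINP3, with CTL highest and KD3 lowest, and no groups overlapped. The mean was 5.60 ± 0.09 in CTL, 3.86 ± 0.36 in KD3 and 4.67 ± 0.23 in KD4 (log2, SD, n = 3). The signal left was 30.0% of CTL in KD3 (log2 difference -1.74, SE 0.18) and 52.6% in KD4 (-0.93, SE 0.18). The probe (A_23_P35277, NM_021165) was well above background on 2 of 3 KD3 arrays and on all others. The KD4 difference fell under the fold used for a call without KD4 array 3 (-0.81), with 75th percentile scaling (-0.79), on slide 2 alone (-0.80) and with the normexp background correction (-0.27), which also took KD3 to -0.51.

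BRINP1 was at background in these cells. Its probe (A_23_P94517, NM_014618, 2 spots) was well above background on 1 of the 9 arrays, KD3 array 2, through 1 of its 2 spots. Its values were 1.20, 1.20 and 1.54 in CTL, 1.99, 2.61 and 1.45 in KD3, and 1.22, 1.22 and 1.60 in KD4 (normalized log2 signal). The groups overlapped, and no fold is given.

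ASTN1 was lower in both knock-downs at both of its probes, which were designed on different RefSeq transcripts. Probe A_33_P3220738 (NM_207108) was at 10.03, 10.07 and 10.09 (normalized log2 signal) in CTL, at 8.59, 8.45 and 8.36 in KD3 and at 8.79, 8.81 and 8.62 in KD4. Probe A_23_P301021 (NM_004319) was at 9.65, 9.72 and 9.62 in CTL, at 8.20, 7.90 and 8.04 in KD3 and at 8.35, 8.60 and 8.27 in KD4. Neither probe's groups overlapped, KD4 lay between KD3 and CTL, and every array was well above background. The signal left in KD3 was 33.1% of CTL at A_33_P3220738 (log2 difference -1.60, SE 0.08) and 32.7% at A_23_P301021 (-1.61, SE 0.11). In KD4 it was 40.0% (-1.32, SE 0.08) and 42.0% (-1.25, SE 0.11). At each knock-down the 2 ASTN1 probes were thus within 1 standard error of each other. The ASTN1 start, shown because both ASTN1 probes were lower, held 20 CG dinucleotides, and 41.2% of promoters hold at least as many.
ASTN1, chr1:177164663-177164962, minus strand: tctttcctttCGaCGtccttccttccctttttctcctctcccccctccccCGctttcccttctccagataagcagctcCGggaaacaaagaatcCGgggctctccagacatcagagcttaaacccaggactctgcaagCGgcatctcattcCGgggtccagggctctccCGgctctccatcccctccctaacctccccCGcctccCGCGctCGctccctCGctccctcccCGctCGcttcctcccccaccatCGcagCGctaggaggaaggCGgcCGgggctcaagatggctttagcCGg

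ASTN2 was measured by 2 probes of the same accession, NM_198188, and they moved in opposite directions. Probe A_24_P83738 was at 10.96, 10.85 and 10.88 (normalized log2 signal) in CTL, at 10.98, 11.13 and 11.20 in KD3 and at 11.35, 11.38 and 11.46 in KD4. Probe A_33_P3371904 was at 6.01, 5.86 and 5.83 in CTL, at 5.04, 5.23 and 4.81 in KD3 and at 5.06, 4.39 and 4.86 in KD4. At A_24_P83738 all knock-down arrays were above CTL, by as little as 0.01 between the closest arrays of KD3 and CTL. At A_33_P3371904 all knock-down arrays were below CTL. The differences at A_24_P83738 were 0.20 in KD3 and 0.50 in KD4 (log2, SE 0.08), both under the 1.8-fold needed for a call. Those at A_33_P3371904 were -0.88 in KD3 and -1.13 in KD4 (log2, SE 0.17), and the KD3 value passed that fold only narrowly. It was -0.77 without KD3 array 3 and -0.82 without CTL array 1, under the fold in each case. ASTN2 was thus counted as lower through A_33_P3371904 alone. The array files do not say which exons the probes cover, and what sets the probes apart was not tested.

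Several starts are annotated for ASTN2. The outermost start and an internal one are shown because transcripts of the gene can begin at either.
ASTN2, chr9:117415008-117415307, minus strand: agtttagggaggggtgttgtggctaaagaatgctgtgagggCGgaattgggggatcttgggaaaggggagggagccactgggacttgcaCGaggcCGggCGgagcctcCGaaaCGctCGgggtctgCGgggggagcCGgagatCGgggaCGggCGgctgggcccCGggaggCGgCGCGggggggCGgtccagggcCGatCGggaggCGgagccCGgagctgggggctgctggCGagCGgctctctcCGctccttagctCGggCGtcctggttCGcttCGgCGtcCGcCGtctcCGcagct
ASTN2, chr9:116687214-116687513, minus strand: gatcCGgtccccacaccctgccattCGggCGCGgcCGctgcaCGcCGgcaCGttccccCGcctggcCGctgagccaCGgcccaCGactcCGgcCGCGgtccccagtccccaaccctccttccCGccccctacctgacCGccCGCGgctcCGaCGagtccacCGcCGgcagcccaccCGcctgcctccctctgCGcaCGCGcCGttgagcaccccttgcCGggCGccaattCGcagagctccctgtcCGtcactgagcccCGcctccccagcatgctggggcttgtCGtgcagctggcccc
The outermost ASTN2 start held 32 CG dinucleotides, and 18.9% of promoters hold at least as many. The internal start held 34, which 15.6% of promoters reach.

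**Figure D3:**
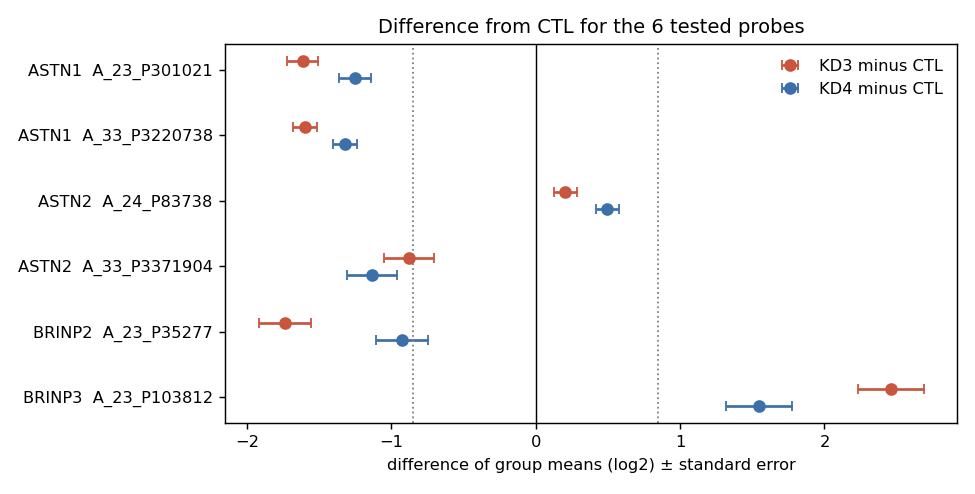
Difference of group means from CTL (x axis, log2 ± standard error) for the 6 tested probes (y axis), in KD3 and KD4, with dotted lines at a fold of 1.8. BRINP3 lies at 2.46 and 1.55, ASTN1 and BRINP2 between -1.74 and -0.93, and the 2 ASTN2 probes on opposite sides of 0.

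The direct comparison of the knock-downs was tested. It shares the KD3 and KD4 arrays with the differences from CTL that were in view when the genes were chosen. It is thus not independent of that choice. Which knock-down lies nearer to CTL is given as a description. No member was called, beside 0.317% of genes called higher and 0.336% called lower in KD4 than in KD3. By limma 5 of the 6 probes had an unadjusted p under 0.05, beside 6244 of all 32276 probes. An adjusted p under 0.05 was reached by 0 of the 6, beside 797 of all probes. The methods' t-test, the kind of test the study used between pairs of groups, put 4 of the 6 under 0.05 without adjustment. BRINP3 was lower in KD4 than in KD3 by 0.91 on the log2 scale (95% interval -1.44 to -0.39, adjusted p = 0.0783 by limma). Its adjusted p was 0.0301 in a fit of the KD3 and KD4 arrays alone, which leaves out the wide spread of CTL, and 0.029 without CTL array 1 or 0.0417 without CTL array 3. BRINP2 was higher in KD4 by 0.81 (0.40 to 1.22, adjusted p = 0.0589 by limma), and with the slide as a block by 0.93 (adjusted p = 0.0179). ASTN1 was higher in KD4 by 0.27 at A_33_P3220738 (0.08 to 0.46, adjusted p = 0.127 by limma) and by 0.36 at A_23_P301021 (0.11 to 0.61, adjusted p = 0.124). ASTN2 differed by 0.29 at A_24_P83738 (0.11 to 0.47, adjusted p = 0.0959 by limma) and by -0.26 at A_33_P3371904 (-0.65 to 0.14, adjusted p = 0.453). For BRINP3, BRINP2 and ASTN1 the KD4 mean lay nearer to CTL than the KD3 mean. At both ASTN2 probes it lay farther from CTL, at 0.50 against 0.20 for A_24_P83738 and -1.13 against -0.88 for A_33_P3371904. SMCHD1 itself was lower in KD4 than in KD3, past the threshold at 2 of its 3 probes. How the members follow the level of SMCHD1 was not tested. A p above the threshold does not show that the knock-downs were alike.

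The members lie at 3 places in the genome. In the order of genes of GRCh38.p14, ASTN1 and BRINP2 are immediate neighbours on chromosome 1, BRINP3 stands elsewhere on chromosome 1, and ASTN2 and BRINP1 lie on chromosome 9 with TLR4 between them. The adjacent ASTN1 and BRINP2 were both lower, with a root mean square difference of 0.31 on the log2 scale between their values on the 9 arrays, after each was set to 0 at its CTL mean. For BRINP3 the same measure was 2.88 against ASTN1 and 2.83 against BRINP2. For ASTN2 probe A_24_P83738 it was 1.48 against ASTN1, 1.41 against BRINP2 and 1.46 against BRINP3. The measure restates the differences from CTL that were in view when the genes were chosen. Nothing about the places of the genes is read from it.

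The genes beside BRINP3 were higher as well. PLA2G4A, the cytosolic phospholipase that releases arachidonic acid, is its immediate neighbour. It was at 7.06, 7.19 and 6.89 (normalized log2 signal) in CTL, at 9.57, 9.25 and 9.35 in KD3 and at 9.15, 9.10 and 9.12 in KD4. PTGS2, the inducible cyclooxygenase that turns arachidonic acid into prostaglandin H, comes next. It was at 3.50, 2.80 and 3.17 in CTL, at 5.00, 4.67 and 4.76 in KD3 and at 4.32, 4.23 and 4.27 in KD4, and was detected on 1 of the CTL arrays and on all 6 of the others. For both genes all knock-down arrays lay above all CTL arrays. PLA2G4A rose by 2.34 in KD3 (SE 0.10, adjusted p = 6.99e-06) and by 2.08 in KD4 (adjusted p = 8.78e-06) on the log2 scale by limma. PTGS2 was called higher in both knock-downs, but it entered the test through the knock-down arrays alone, so that no size or p-value is given.

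On the other side of BRINP3 stand RGS18, RGS21 and RGS1, regulators of G protein signalling, which were not above background in enough arrays to be tested. Among the 20 genes within 3 places of a member or inside it, 19 had a probe and 12 were tested. PLA2G4A and PTGS2 were called higher in both knock-downs and 0 were called lower in either. The filter admitted PTGS2 through the knock-down arrays alone, which favours a call as higher. Its call is therefore not read against the shares of all genes, here or within 10 places below. Over all genes tested 1.43% were called higher in KD3 and 1.68% in KD4, and 3.5% and 4.71% were called lower. With an unadjusted p and the same fold, 0 were lower by limma or by the methods' t-test. By limma 4 of the 12 in KD3 and 6 in KD4 had an unadjusted p under 0.05 at any tested probe, beside 10630 and 12978 of all 32276 probes. The former count genes and the latter single probes, so that the shares are not like for like. TRIM32, a ubiquitin ligase gene that lies inside ASTN2, differed by 0.16 in KD3 and by 0.20 in KD4 (log2, adjusted p = 0.188 and 0.0913 by limma). Within 10 places of BRINP3, a width chosen after the values were seen, 13 of 20 genes were tested. PLA2G4A and PTGS2 were again those called higher, and HMCN1, a large extracellular matrix protein gene 7 places away, was called lower in KD4 (-1.55, adjusted p = 4.87e-05 by limma) and was just under the fold in KD3 (-0.84, adjusted p = 0.00148). Within 10 places of ASTN1, 15 of 19 genes other than BRINP2 were tested, and RABGAP1L, at 1 of its 3 probes, was higher in both knock-downs (0.87 in KD3 and 0.94 in KD4, adjusted p = 0.000554 and 0.000288 by limma). TEX35 was called higher in KD3, but it was detected on 1 of 3 CTL arrays, 3 of 3 KD3 arrays and 0 of 3 KD4 arrays. It was tested through KD3 alone, so that no size or p-value is given. Within 10 places of ASTN2, 12 of 19 genes other than BRINP1 were tested, and TRAF1, an adaptor of tumour necrosis factor receptors, was detected on all 3 CTL arrays and on 0 of the 6 knock-down arrays. TRAF1 was called lower in both knock-downs, but it entered the test through CTL alone, so that no size or p-value is given.

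**Figure D4:**
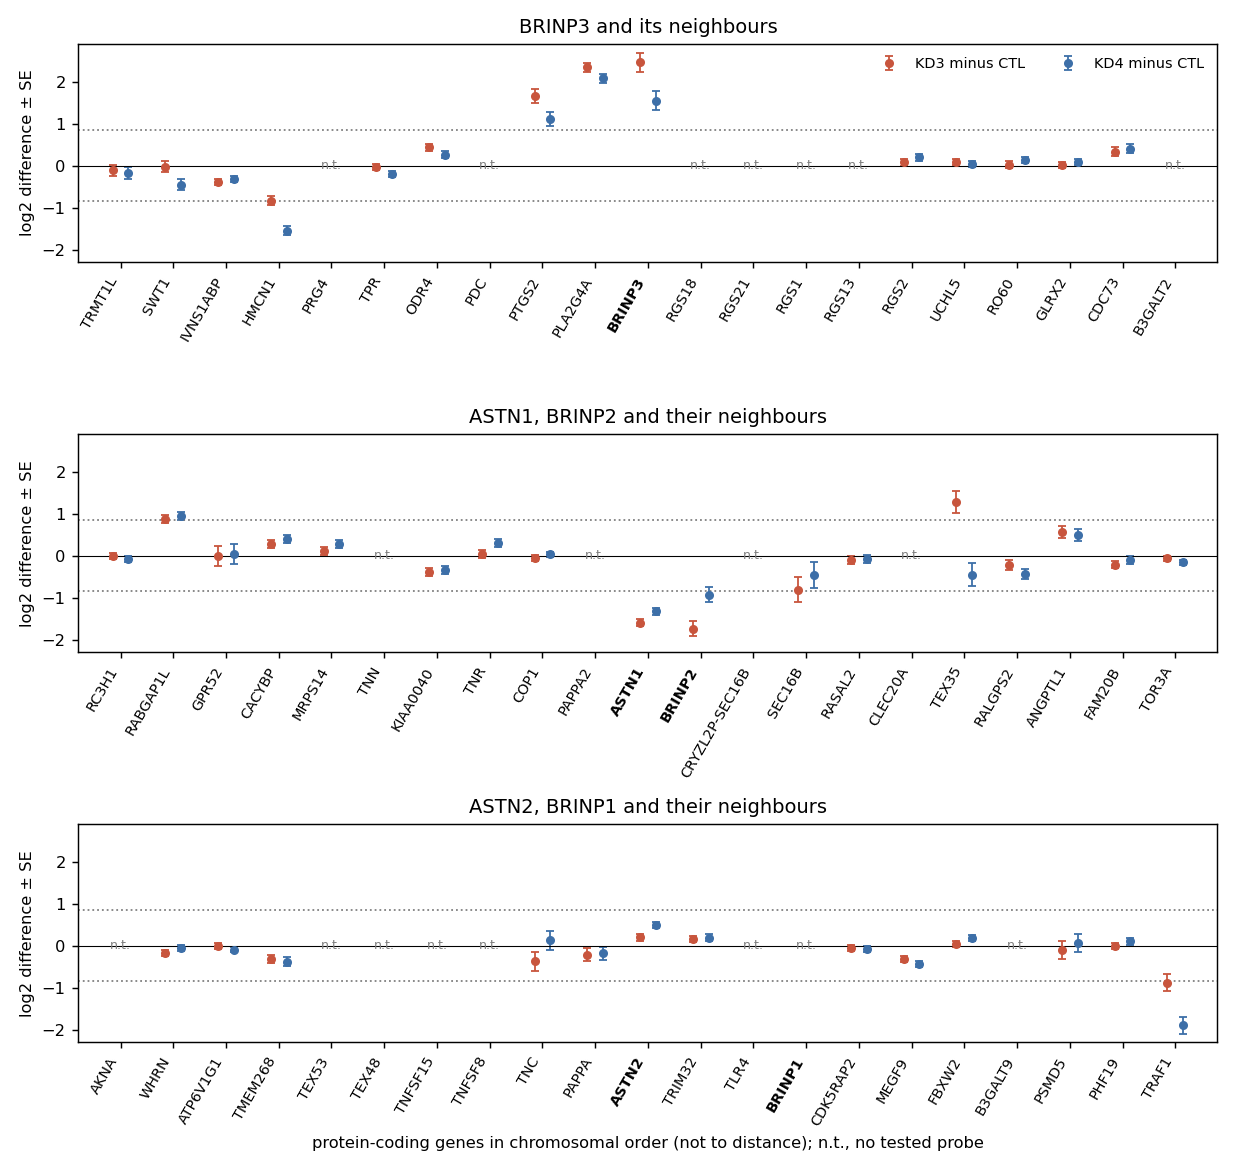
Difference from CTL (y axis, log2 ± standard error) of the brightest tested probe of each protein-coding gene around the members (x axis, gene order and not distance), in KD3 and KD4, with dotted lines at a fold of 1.8. PTGS2, PLA2G4A and BRINP3 stand together above the upper line and ASTN1 and BRINP2 below the lower line, while ASTN2 is drawn by A_24_P83738 and the points of TRAF1 in both knock-downs and of TEX35 in KD4 are signals not above background.

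The genes whose values were most like those of a member were found by the same root mean square difference over the 9 arrays, among 16078 genes and with no test. The measure again mostly restates differences from CTL, and no shared function is read from the genes named. For BRINP3 the closest gene was its neighbour PLA2G4A (0.39 on the log2 scale). TENM1, a teneurin of neuronal membranes (0.41), and VSNL1, the neuronal calcium sensor visinin-like 1 (0.42), came next. For ASTN1 the closest were CRMP1, a collapsin response mediator of axon guidance (0.09), the potassium channel gene KCNH2 (0.12) and the adrenergic receptor gene ADRA1B (0.13). CRMP1 differed from CTL by -1.62 in KD3 and by -1.24 in KD4 (log2). For BRINP2 they were CPQ (0.23), ITGB4 (0.25) and GNAO1, the G protein subunit abundant in neurons (0.25). For ASTN2 probe A_24_P83738 they were SLC35A4 (0.04), MVB12A (0.05) and TRMO (0.05), which differed from CTL by 0.20 to 0.23 in KD3 and by 0.47 to 0.48 in KD4.

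Genes of the pathways around the family were read from lists, and no list was tested as a set. Over all genes tested 1.43% were called higher and 3.5% lower in KD3, and 1.68% and 4.71% in KD4. Of all 32276 probes 10630 in KD3 and 12978 in KD4 had an unadjusted p under 0.05 by limma. Counts of the lists and of the markers below stand beside these shares. A listed gene was counted at any of its tested probes, so that unadjusted counts are not like for like with single probes. Of 7 MACPF proteins of complement and perforin 4 were tested and 0 were called in any comparison, and 0 had an unadjusted p under 0.05 by limma. The 20 genes of neuronal migration, among them the reelin receptors and the cytoskeletal regulators through which migrating neurons move, had 19 tested. In KD3 0 of them were called by limma or the methods' t-test, and 13 had an unadjusted p under 0.05 by limma. In KD4 DCX, the microtubule protein doublecortin of migrating neurons, was higher and VLDLR, a reelin receptor, was lower at 1 of its 2 probes (-0.91, adjusted p = 0.000132 by limma). That VLDLR probe was at -0.55 in KD3 (adjusted p = 0.00193 by limma), under the fold, and the other was at -0.41 in KD4 (adjusted p = 0.101). DCX was at 5.28, 5.47 and 5.26 (normalized log2 signal) in CTL, at 5.57, 5.59 and 5.80 in KD3 and at 8.30, 8.36 and 8.33 in KD4. Only the KD4 arrays stood apart by more than 2 log2 units. DCX was above KD3 in KD4 by 2.67 (SE 0.09, adjusted p = 8.49e-06 by limma), and its other probe gave 2.77 (adjusted p = 0.000163).

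Of 11 proteins with which ASTN2 traffics, adaptor subunits, neuroligins and others, 10 genes were tested. NLGN1, a postsynaptic adhesion protein, was called lower in KD4 through 1 of its 2 probes (-1.12, adjusted p = 9.62e-05 by limma), and the other probe was at -0.78. Of 11 genes of the retinoic acid response 9 were tested, of which 1 was called higher and 1 lower in each knock-down. RARB, a retinoic acid receptor that is itself induced by retinoic acid, rose by 1.04 in KD3 (adjusted p = 0.000262 by limma) and by 1.11 in KD4 (adjusted p = 0.000153). It was at 5.98, 5.94 and 5.79 (normalized log2 signal) in CTL, at 7.03, 6.75 and 7.05 in KD3 and at 7.11, 6.94 and 6.98 in KD4. STRA6, the membrane receptor that takes up retinol, was at 10.72, 10.90 and 11.34 in CTL, at 7.83, 7.84 and 7.66 in KD3 and at 8.42, 8.51 and 8.44 in KD4. It fell in both, with log2 differences of -3.21 in KD3 (adjusted p = 6.99e-06 by limma) and -2.53 in KD4 (adjusted p = 1.53e-05), so that RARB and STRA6 went in opposite directions. The 10 genes of the BMP response, ID1 to ID4 and the inhibitory SMADs among them, were all tested, and 0 were called by limma or the methods' t-test in any comparison. By limma 8 of the 10 had an unadjusted p under 0.05 in KD3 and 5 had one in KD4, each with a fold under 1.8.

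Markers of other cells were read beside these values. Of 10 neuron markers 9 were tested. RBFOX3 and NEFM were called lower in both knock-downs (adjusted p at most 0.00305 by limma). The log2 difference of RBFOX3 was -2.50 in KD3 and -2.08 in KD4, and that of NEFM was -1.21 and -1.24. The other tested markers were not called and went both ways. In KD3 and KD4 STMN2 was at 0.35 and 0.63 and SYT1 at 0.09 and 0.45. MAP2 was at -0.63 and -0.29, TUBB3 at -0.67 and -0.16 and NEFL at -0.33 and -0.41. SNAP25 (-0.07 and 0.15) and ELAVL4 (-0.27 and 0.05) changed sign between the knock-downs. The summed signal over the neuron list was 10860 to 12214 in CTL, 8286 to 8821 in KD3 and 9166 to 9638 in KD4 (linear normalized units). In this linear sum the brightest genes, NEFL (12.81 in CTL on the log2 scale) and TUBB3 (11.49), weigh most. NEFL was at 12.47 in KD3 and 12.40 in KD4, and TUBB3 was at 10.81 and 11.33. The sum is thus no reading of the whole list, and its relation to the members was not tested. ELAVL3 was well above background on none of the arrays. Of 5 glia markers 4 were tested. AQP4 was lower in both knock-downs (-1.47 in KD3 and -1.65 in KD4, adjusted p at most 8.66e-05 by limma), and MBP was called lower in KD4 through 1 of 2 probes. SOX10 (0.56 in KD3 and 0.37 in KD4) and S100B (-0.14 and -0.51) were not called. The list's sum was 1511 to 1606 in CTL, 1136 to 1213 in KD3 and 1090 to 1104 in KD4. Of 6 fibroblast and blood markers 5 were tested, 0 were called by limma or the methods' t-test, and 1 had an unadjusted p under 0.05 in each knock-down by limma. HBB was well above background on none of the arrays, and the sum was 1078 to 1236 in CTL, 990.3 to 1038 in KD3 and 1113 to 1219 in KD4. Among the 6 HEK293 markers PAX2 was lower in both knock-downs at 1 of its 2 tested probes (-2.41 in KD3 and -2.65 in KD4, adjusted p at most 2.33e-06 by limma), while the other tested probe was at -0.01 and 0.06. None of the other 5 was called, and 1 or 2 of them per knock-down had an unadjusted p under 0.05 by limma.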

How the data were processed

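Expression was measured on 9 Agilent one-color arrays, 3 per group. The authors deposited, per array, spot intensity values from Agilent Feature Extraction 10.10.1.1, background-subtracted and detrended, with flags for outliers, saturation and signal well above background. They also deposited log2 values, quantile normalized in GeneSpring, which were used as an alternative. Here outlier spots (260 to 634 of 58717) were left out, log2 signals were quantile normalized, and spots of the same probe averaged (limma 3.58.1, R 4.3.3). Probes well above background on all arrays of 1 group or more were tested, with all 9 arrays in 1 fit. The array design uses hg19 and the gene table is of GRCh38.p14, so that only gene order was taken from it.

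The members and lists were chosen with earlier results of these data known. Named genes were the members, SMCHD1, list and neighbouring genes called alike in both knock-downs or between them (at most 5 per list), and the 3 genes closest to a member. Genes called once, or within 10 places, were named after their values were seen. Lists covered MACPF proteins, neuronal migration, ASTN2 trafficking partners, retinoic acid and BMP response, and HEK293, neuron, glia, fibroblast and blood markers. Alternatives were 75th percentile scaling, normexp (offset 50), filters, slide or replicate number as a block, single slides, left-out arrays, pooled knock-downs, pairs of groups, the methods' t-test and no fold threshold. The fit was also run on simulated data, whose outcome is not reported here and is not used as support.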

Additional observations from a re-analysis of the deposited data

Results flagged for a closer look

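The direct comparison of the knock-downs differed past the adjusted threshold for these transcripts. SMCHD1 was lower in KD4 than in KD3 by a log2 difference of -0.51 at probe A_23_P38723 (adjusted p = 0.0141 by limma) and of -0.56 at A_24_P400997 (adjusted p = 0.0195), and on all 3 KD4 arrays at each. The third probe, A_24_P82630, gave -0.54 (adjusted p = 0.0902). At A_23_P38723 the adjusted p was 0.0524 to 0.0645 without KD3 array 1 or 2 or KD4 array 1 or 2. At A_24_P400997 it was 0.0571 to 0.0697 without KD3 array 1 or 3 or any KD4 array. After Benjamini-Hochberg adjustment the methods' t-test gave 0.174 and 0.184 for these probes. DCX was higher in KD4 than in KD3 by 2.67 (adjusted p = 8.49e-06 by limma), on 3 of 3 arrays. STRA6 was higher in KD4 than in KD3 by 0.68 (adjusted p = 0.0495 by limma) at probe A_33_P3307495, and by 0.46 at A_33_P3307500 (adjusted p = 0.114).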

How the results depend on the processing

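ASTN1, BRINP2, BRINP3 and both ASTN2 probes kept the direction of their differences from CTL under each alternative run. The normexp correction, whose offset of 50 compresses dim probes, gave BRINP3 0.89 in KD3 and 0.47 in KD4, BRINP2 -0.51 and -0.27, ASTN2 probe A_33_P3371904 -0.36 and -0.45, ASTN1 -1.41 and -1.09 at A_23_P301021 and -1.45 and -1.23 at A_33_P3220738. Both knock-downs pooled gave BRINP3 2.00, BRINP2 -1.33, ASTN1 -1.43 and -1.46, and ASTN2 probe A_24_P83738 0.35. On slide 1 alone KD3 was at -1.77 for ASTN1 probe A_23_P301021, -0.62 for ASTN2 probe A_33_P3371904 and -2.10 for BRINP2. On slide 2 alone BRINP3 was at 2.03 in KD3 and 0.92 in KD4, ASTN1 probe A_33_P3220738 at -1.24 in KD4, ASTN2 probe A_24_P83738 at 0.38 in KD4 and A_33_P3371904 at -1.09 in KD3. There KD4 minus KD3 of A_33_P3371904 turned to 0.14 (adjusted p = 0.989). Slide 1 held 1 KD3 array, and slide 2 held 1 KD4 and 1 CTL array, so that the fits and calls on single slides assume that a lone array varies like the other groups.

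KD4 minus KD3 passed the threshold for BRINP2 with 75th percentile scaling (1.01, adjusted p = 0.0104) and the slide as a block (0.93), and for BRINP3 with normexp (-0.42, adjusted p = 0.0145), the KD3 and KD4 arrays alone (-0.91), and without CTL array 1 (adjusted p = 0.029) or 3 (0.0417). With the methods' t-test without adjustment p was 0.0366 for ASTN1 probe A_33_P3220738 (0.27), 0.0308 for ASTN2 probe A_24_P83738 (0.29), 0.0385 for BRINP2 (0.81) and 0.00745 for BRINP3 (-0.91).

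Members called higher in KD3 became 0 with only probes above background on all arrays, which leaves BRINP3 untested, or the methods' t-test with adjustment. In KD4 they became 0 under these, normexp and slide 2 alone, and 2 with no fold threshold. Members called lower became 1 in each knock-down with normexp and the adjusted t-test, and in KD4 on slide 2 alone. Between the knock-downs 1 was called higher with 75th percentile scaling or the slide block, and 1 lower in the fit of KD3 and KD4 alone, without CTL array 1 or 3, and with the unadjusted t-test. Over all genes KD4 minus KD3 had 51 higher and 54 lower, 84 and 33 with 75th percentile scaling, and 23 and 8 with normexp.

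Leaving out each array in turn, BRINP3 ranged from 2.22 to 2.73 in KD3, 1.30 to 1.81 in KD4 and -1.02 to -0.81 between them. BRINP2 ranged from -1.86 to -1.53, -1.04 to -0.81 and 0.60 to 0.93. Members called lower were 2 to 3 in each knock-down, and between the knock-downs 0 to 1. Equal replicate numbers did not pair the arrays: their deviations from group means correlated at -0.08 to 0.14, against -0.14 to 0.14 for unequal numbers. With the replicate block no call of a member changed, BRINP3 between the knock-downs had an adjusted p of 0.106, SMCHD1 had 0.0599 at A_23_P38723 and 0.0692 at A_24_P400997, and 43 genes were higher and 44 lower. The low signal of BRINP3 in CTL and of BRINP2 in KD3, with 3 arrays per group, limits both folds. The causes of these shifts were not tested.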
